A study of Mus musculus with 4 samples.

Results

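Apolipoproteins coat the lipid particles that carry cholesterol, and a small group of transporters and enzymes feeds cholesterol to them or turns it into exportable products. The set described here holds 8 genes of that route: the apolipoprotein genes Apoe, Apoc1 and Apoc2, the transporter genes Abca1 and Abcg1, the phospholipid transfer protein gene Pltp, the sterol hydroxylase gene Cyp27a1 and the cholesteryl ester hydrolase gene Nceh1. They were measured in alveolar macrophages, which live in the air spaces and clear surfactant and debris, sorted from the lungs of adult C57BL/6 mice. The WT mice carried floxed alleles of Pparg without a Cre recombinase. The KO mice carried the same floxed alleles together with Cre under the CD11c promoter, which is active in alveolar macrophages and also in dendritic cells. There were 2 Affymetrix arrays for each genotype, and the cells on every array were pooled from 2 mice as 1 biological replicate. Cells were sorted as autofluorescent, CD45-positive, CD11c-high and Siglec-F-positive, with CD11b low in WT and high in KO, and the labels call the WT cells mature and the KO cells immature and arrested. A group with Cre and intact Pparg was not analysed here, so Cre and the loss of Pparg cannot be told apart in these arrays. The CD11b gate and the stage named by the labels also differ with genotype. They cannot be told apart from the loss of Pparg either.

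Of the 8 genes, 7 had a probe set annotated with that gene alone, and each had 1 such probe set. They were read among 18782 genes in all. The only probe set that lists Pltp also lists Ctsa, so Pltp has no level of its own here, and that probe set is described separately. Values are log2 expression from RMA (robust multi-array average), which gives every array the same distribution, with a median of 3.14 over its probe sets. A gene was called changed when its adjusted p from limma, corrected by Benjamini-Hochberg over the 18782 genes, was under 0.05. Each difference is the KO mean less the WT mean in log2 units, so that 1 unit is a 2-fold change, and carries the model's standard error (SE). Signals of different genes are not compared with each other, since probes differ in brightness.

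Macrophages that take up cholesterol cannot break its ring system, and dispose of it by efflux. Cholesteryl esters in lipid droplets are first hydrolysed, and the free sterol then leaves through ABC transporters to apolipoprotein E, apolipoprotein A-I or high-density lipoprotein. Sterol-sensing LXR receptors, nuclear receptors that pair with RXR, are known to drive Abca1, Abcg1, Apoe and its neighbours Apoc1 and Apoc2. PPARγ, the product of Pparg, is a lipid-sensing nuclear receptor of the same family, and alveolar macrophages use it while they clear lipid-rich surfactant.

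The sequences shown are the 250 bases before the start site for the 3 genes that rose, Apoe, Apoc2 and Cyp27a1, followed by Abca1, which did not pass the test, and Nceh1, which fell. RefSeq promoters (GRCm38.p6) were found for 6 of the 8 genes, and for Apoe the first of 3 listed starts is given. Apoc1 and Abcg1 were not matched. Capitals mark exact matches, on either strand, to TATAAA (the TATA box), CACGTG (an E-box) or AGGTCA (the half-site bound by many nuclear receptors), none of which overlap in the sequences shown.
Apoe, minus strand, chr7:19699189-19699438: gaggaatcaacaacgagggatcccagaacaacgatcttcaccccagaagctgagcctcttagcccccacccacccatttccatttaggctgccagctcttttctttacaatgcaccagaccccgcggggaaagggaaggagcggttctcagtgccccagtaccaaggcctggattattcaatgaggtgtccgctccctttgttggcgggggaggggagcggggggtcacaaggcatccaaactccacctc
Apoc2, minus strand, chr7:19677942-19678191: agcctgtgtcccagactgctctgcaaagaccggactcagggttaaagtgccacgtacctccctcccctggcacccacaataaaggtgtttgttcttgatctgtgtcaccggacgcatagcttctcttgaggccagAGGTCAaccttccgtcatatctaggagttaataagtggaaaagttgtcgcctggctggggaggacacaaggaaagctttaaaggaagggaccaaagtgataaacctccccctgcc
Cyp27a1, plus strand, chr1:74713285-74713534: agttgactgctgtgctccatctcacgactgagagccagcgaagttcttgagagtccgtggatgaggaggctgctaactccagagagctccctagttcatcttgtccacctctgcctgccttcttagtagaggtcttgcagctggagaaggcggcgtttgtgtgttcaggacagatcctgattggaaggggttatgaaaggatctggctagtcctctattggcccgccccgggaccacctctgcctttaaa
Abca1, minus strand, chr4:53159896-53160145: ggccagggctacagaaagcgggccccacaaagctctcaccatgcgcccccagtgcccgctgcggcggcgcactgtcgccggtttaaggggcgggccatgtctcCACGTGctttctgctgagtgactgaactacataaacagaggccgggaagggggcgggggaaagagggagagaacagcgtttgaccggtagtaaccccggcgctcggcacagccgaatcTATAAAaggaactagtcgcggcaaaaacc
Nceh1, plus strand, chr3:27182754-27183003: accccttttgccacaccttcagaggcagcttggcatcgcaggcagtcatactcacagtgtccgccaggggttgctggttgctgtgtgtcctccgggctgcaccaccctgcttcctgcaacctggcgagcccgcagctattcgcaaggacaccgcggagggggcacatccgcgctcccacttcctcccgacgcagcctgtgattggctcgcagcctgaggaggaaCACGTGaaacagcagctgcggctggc

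In these windows Apoc2 held AGGTCA, with its first base 115 bases before the start, and Abca1 held CACGTG at 147 and TATAAA at 29 bases before it. Nceh1 held CACGTG at 26 bases before the start. The windows of Apoe (first start) and Cyp27a1 held none of the motifs searched. Of the other Apoe starts, whose windows are not shown, the second held TATAAA at 96 bases before it and, on the opposite strand and overlapping, at 100 bases before it. Over all 32851 promoters in the table, TATAAA was present in 12.4% of 250-base windows, CACGTG in 6.02% and AGGTCA in 14.0%. The half-site repeated after 1 base (DR1, the form preferred by PPAR with RXR) and after 4 bases (DR4, that preferred by LXR with RXR) was in 0.0335% and 0.0152% of windows, and in none of these 5. A match is a run of letters and not a measured binding site.

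Within the gene set the apolipoprotein genes Apoe and Apoc2 and the hydroxylase gene Cyp27a1 were higher in KO macrophages, while the transporter gene Abcg1 and the hydrolase gene Nceh1 were lower. Apoc1 and Abca1 did not pass the test. That made 3 genes higher and 2 lower of 7, in a comparison where 14.3% of all genes were called, 7.41% as higher and 6.86% as lower. In the same 5 genes both KO arrays lay beyond both WT arrays, which was so for 55.3% of all genes (25.3% with KO above WT and 30.0% with KO below). In a stricter test, against a difference of at least 0.5, which called 4.44% of all genes, Apoe, Apoc2 and Cyp27a1 passed. The median difference of the 7 genes was -0.04, that of Abca1, against -0.01 over all genes. These genes were proposed with earlier results of the same arrays known, so their counts are a description.

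**Figure D1:**
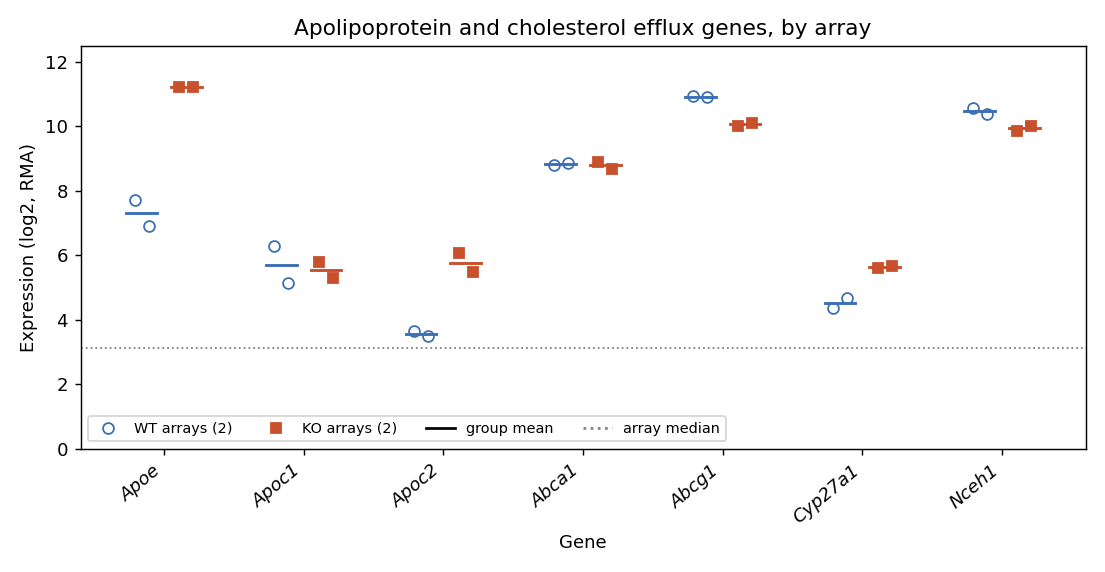
Log2 expression of the 7 genes with a probe set of their own on each array. Open circles are the 2 WT arrays, squares the 2 KO arrays, short lines group means and the dotted line the array median of 3.14; Apoe stands at 11.22 on both KO arrays, while the arrays of Apoc1 and Abca1 overlap.

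Apoe encodes apolipoprotein E, which macrophages secrete, which takes up effluxed lipid and which delivers it to cells through lipoprotein receptors. On the WT arrays Apoe (probe set 10560624, Entrez Gene 11816) read 7.71 in replicate 1 and 6.91 in replicate 2, and on both KO arrays it read 11.22. Both KO arrays were far above both WT arrays, and the gap of 0.80 between the WT arrays was small beside the gap between genotypes. The mean went from 7.31 ± 0.57 (SD, n = 2) to 11.22 ± 0.00 (SD, n = 2), a rise of 3.91 ± 0.25 (SE; limma adjusted p = 0.000325). This is 15.0-fold, with a 95% interval from 9.92 to 22.8, and the 45th largest rise among the 18782 genes. The interval rests on 2 arrays a group, and the deposited values do not resolve the KO arrays from each other.

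Apoc2 encodes apolipoprotein C-II, the cofactor that activates lipoprotein lipase. The gene (probe set 10560608, Entrez Gene 11813) read 3.64 and 3.51 on the WT arrays and 6.07 and 5.49 on the KO arrays. In WT it stood just above the array median, where a fold change can be understated, and both KO arrays were well clear of it. It rose by 2.20 ± 0.19 (SE; limma adjusted p = 0.0011), from 3.57 ± 0.10 to 5.78 ± 0.41 (SD, n = 2 each). The 4.60-fold rise, with a 95% interval from 3.32 to 6.36, was the 185th largest of all genes.

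Apoc1 encodes apolipoprotein C-I, a small exchangeable apolipoprotein that inhibits lipoprotein uptake and lipid transfer. The gene (probe set 10560618, Entrez Gene 11812) read 6.28 and 5.14 on the WT arrays and 5.79 and 5.30 on the KO arrays. Both KO values lay between the WT values. Its difference was -0.16 ± 0.37 (SE; limma adjusted p = 0.834), with a 95% interval from -1.05 to 0.73. The interval ends below the rise of Apoc2, and it holds both a fall to 0.483 of the WT level and a rise to 1.66 times it. The sign followed the WT array used, with 0.41 without WT replicate 1 and -0.74 without WT replicate 2, and it was 0.08 without KO replicate 2.

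The WT arrays of Apoc1 lay 1.14 apart, and the 11 measured markers of alveolar epithelium ran in differing directions between these arrays. Sftpc, the surfactant protein C gene of alveolar type II cells, read 4.27 and 2.99 in WT and 3.64 and 3.22 in KO, in the same order of arrays as Apoc1. Its root mean square distance from Apoc1, after centring each gene on its own mean over the 4 arrays, was 0.06 and the smallest of all named genes. Plin1 (0.09) and Mlph (0.10) came next, and this search for Apoc1 was added after its values were seen. Scgb1a1, the club cell secretoglobin gene, was also higher on the first WT array (6.89 against 4.26), while Pdpn and Hopx were higher on the second. Slc34a2 was higher on the first as well (3.22 against 2.44). Abca3, a gene of type II cells like Sftpc, read 6.74 and 6.91 in WT and 7.10 and 7.12 in KO. Sftpb read 3.54 and 3.43 in WT and 3.15 and 3.05 in KO. The arrays of Abca3 and Sftpb were in another order than those of Apoc1. Pdpn, a marker of type I cells, read 5.47 and 7.05 in WT and 9.19 and 8.94 in KO, and Hopx 4.09 and 4.65 in WT and 7.14 and 6.92 in KO. Both were called higher in KO (2.81 ± 0.46 and 2.66 ± 0.19) and Ager lower (-1.32 ± 0.12), while Pdpn lost its call without KO replicate 1 (adjusted p = 0.0872) or KO replicate 2 (0.0684). Of the 11 markers, 2 were below the array median on all arrays (Sftpd and Lamp3), and the list's mean level was 4.22 and 3.95 in WT and 4.55 and 4.39 in KO. Whether RNA of other cells had a part in the level of Apoc1 was not tested. In such bulk samples, fewer cells of a type and less RNA per cell cannot be told apart.

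Apoe, Apoc1, Apoc4 and Apoc2 lie next to each other on mouse chromosome 7, in the RefSeq gene table (GRCm38.p6). Between Apoe and Apoc2, which rose, lay Apoc1 and Apoc4, which did not pass the test. Apoc4, the gene of apolipoprotein C-IV, read 2.95 and 3.30 in WT and 2.95 and 3.71 in KO and differed by 0.20 ± 0.25 (SE; limma adjusted p = 0.69). A predicted gene in this run, Gm44805, was not analysed here. Of the 4 nearest measured genes beyond Apoe, none passed the test: Tomm40, which encodes the mitochondrial import pore, differed by -0.23 ± 0.12, Nectin2 by -0.08 ± 0.10, the adhesion molecule gene Bcam by -0.93 ± 0.39 and Cblc by 0.01 ± 0.11 (SE). Bcam had an adjusted p of 0.199 with all arrays and 0.0121 without WT replicate 2, and its WT arrays read 4.71 and 3.52.

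Beyond Apoc2, Clptm1 differed by 0.19 ± 0.10 (limma adjusted p = 0.303), Clasrp by -0.16 ± 0.13 and Zfp296 by -0.07 ± 0.11 (SE). Relb, which encodes a subunit of the NF-κB transcription factors, was higher by 0.80 ± 0.18 (SE; limma adjusted p = 0.03), reading 4.83 and 5.03 in WT and 5.98 and 5.49 in KO. That call was lost without WT replicate 1 (adjusted p = 0.113) and without KO replicate 1 (adjusted p = 0.103). Of the 12 measured genes of the run and its flanks, 3 were called higher with all arrays, where 7.41% of all genes were higher. Besides Apoe and Apoc2, which define the run, only Relb was called.

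**Figure D2:**
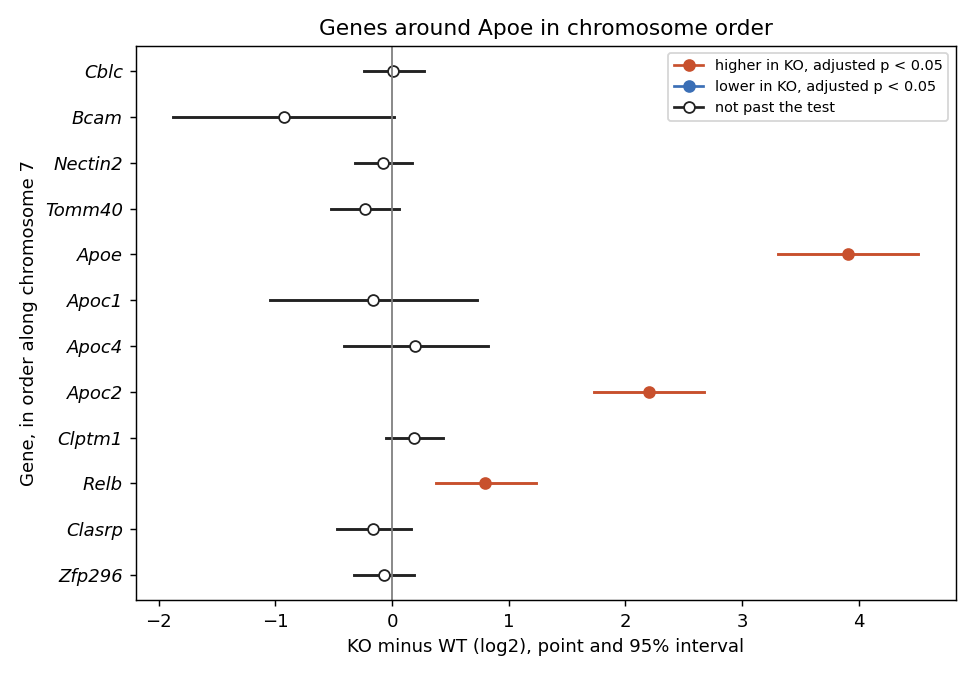
Difference between the KO and WT means in log2 units, KO less WT, and its 95% interval from the limma model, for the 12 measured genes in and beside the run from Apoe to Apoc2, in their order on chromosome 7 and not to scale. Apoe (3.91) and Apoc2 (2.20) stand to the right, and Apoc1 (-0.16) and Apoc4 (0.20), which lie between them, straddle 0.

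Of 14 measured genes of other apolipoproteins and their partners, a list that includes Apobec1, the editing enzyme of Apob mRNA, and the acute-phase gene Saa3, 0 passed the limma test over all genes (7.41% of all genes were higher and 6.86% lower). At an unadjusted p under 0.05, 2373 of all 18782 genes were higher and 2630 lower. Among these 14 genes there were 0 higher and 1 lower at that level, Clu, which encodes clusterin (-0.36 ± 0.12). Their median difference was -0.03, and 9 of the 14 were below the array median on every array, where a difference is hard to see. Apob read 2.21 and 2.22 in WT and 2.29 and 2.19 in KO, and Apoa1 3.56 and 3.59 in WT and 3.40 and 3.54 in KO. Apobec1 stood well above the median, at 7.72 and 7.58 in WT and 7.85 and 7.97 in KO, a difference of 0.26 ± 0.11 (SE; limma adjusted p = 0.191).

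Abca1 encodes the transporter that loads cholesterol and phospholipid onto lipid-poor apolipoproteins, and Abcg1 the one that serves mature high-density lipoprotein. Abca1 (probe set 10512949, Entrez Gene 11303) read 8.81 and 8.87 on the WT arrays and 8.90 and 8.69 on the KO arrays. The KO values lay on either side of the WT values. The difference was -0.04 ± 0.11 (SE; limma adjusted p = 0.869), with a 95% interval from -0.31 to 0.23, or 0.807 to 1.17 times the WT level. Without KO replicate 2 it was 0.06.

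Abcg1 (probe set 10443730, Entrez Gene 11307) read 10.95 and 10.90 on the WT arrays and 10.03 and 10.10 on the KO arrays. The arrays of a genotype lay within 0.07 of each other, and both KO arrays were below both WT arrays. Abcg1 fell by 0.86 ± 0.10 (SE; limma adjusted p = 0.00255), to 0.551 of the WT level with a 95% interval from 0.47 to 0.646. The interval of Abcg1, from -1.09 to -0.63, lies wholly below that of Abca1. The difference between the changes of the 2 genes was not itself tested.

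Among 16 other measured transporters of ABC subfamilies A and G, 6 were higher in KO, 0 were lower and 10 did not pass the limma test. Over all genes 7.41% were higher and 6.86% lower. The median difference of the 16 genes was 0.04. At an unadjusted p under 0.05 there were 7 higher and 2 lower, against 2373 higher and 2630 lower of all 18782 genes. Abca9, a subfamily A member of uncertain substrate, read 2.63 and 3.02 in WT and 5.98 and 6.08 in KO, a rise of 3.21 ± 0.15 (SE; limma adjusted p = 0.000114). Its relatives Abca8a (1.37 ± 0.17) and Abca8b (1.26 ± 0.16) were also higher, from levels under 2 in WT. Both had a KO mean of 3.23, near the array median of 3.14. Abca8a and Abca8b are close copies whose signals may be shared, so they are not separate observations. Abcg3 was higher by 1.35 ± 0.20, and also stood near that median in KO, at 3.73 and 3.13.

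The others called were Abcg2 (1.22 ± 0.19), an efflux pump for drugs, porphyrins and urate, and Abca5 (0.84 ± 0.13). Abca5 read 3.22 and 3.16 in KO, close to the array median of 3.14. Without KO replicate 1 the adjusted p was 0.0758 for Abcg2 and 0.0708 for Abca5, and without KO replicate 2 that of Abca5 was 0.0566. Abca3, which loads surfactant lipid into lamellar bodies of type II cells, differed by 0.28 ± 0.11 (limma adjusted p = 0.149), and Abca7 by 0.01 ± 0.11. The sterol transporters of liver and gut, Abcg5 (-0.19 ± 0.15) and Abcg8 (-0.18 ± 0.16), were below the array median on all arrays.

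**Figure D3:**
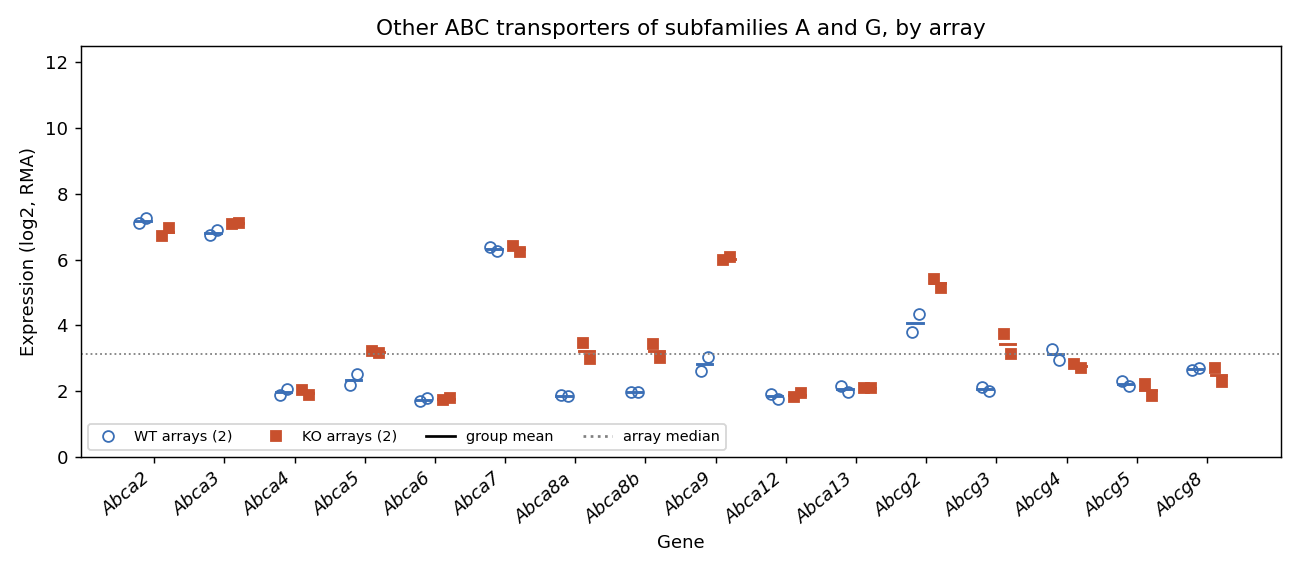
Log2 expression of 16 other ABC transporters of subfamilies A and G on each array. Open circles are WT arrays, squares KO arrays, short lines group means and the dotted line the array median of 3.14; the Abca9 arrays go from 2.63 and 3.02 in WT to 5.98 and 6.08 in KO, and most of the other genes stay near or under the median.

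Cyp27a1 encodes a mitochondrial sterol hydroxylase, which adds a hydroxyl group to the side chain of cholesterol and so makes an oxysterol that binds LXR and can leave the cell. Cyp27a1 (probe set 10347481, Entrez Gene 104086) read 4.38 and 4.69 on the WT arrays and 5.59 and 5.68 on the KO arrays. Both KO arrays were above both WT arrays, by more than the gap of 0.31 within WT. It rose by 1.10 ± 0.13 (SE; limma adjusted p = 0.00321), which is 2.15-fold with a 95% interval from 1.72 to 2.68. Among the other 11 measured enzymes of oxysterol and bile acid metabolism, 2 were higher and 2 lower, against 7.41% and 6.86% of all genes. Their median difference was -0.03. Ch25h, which makes another side-chain oxysterol, was higher by 1.26 ± 0.14, reading 6.90 and 7.07 in WT and 8.39 and 8.09 in KO.

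Hsd3b7, which acts on oxysterols that already carry an extra hydroxyl group, was lower by -2.00 ± 0.16, reading 8.85 and 8.42 in WT and 6.69 and 6.58 in KO. Sult2b1, a sulfotransferase for cholesterol and oxysterols, was lower by -1.34 ± 0.16. Amacr, a racemase of bile acid synthesis, was higher by 0.57 ± 0.09, and lost its call without WT replicate 1 (adjusted p = 0.0516), KO replicate 1 (0.0645) or KO replicate 2 (0.0683). Fdx1, the ferredoxin that passes electrons to Cyp27a1, differed by -0.01 ± 0.10. Of the 11 enzymes, 5 were below the array median on all arrays, among them the oxysterol 7-hydroxylase gene Cyp7b1.

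Nceh1 encodes neutral cholesteryl ester hydrolase, which frees cholesterol from its esters before efflux. Nceh1 (probe set 10491083, Entrez Gene 320024) read 10.58 and 10.40 on the WT arrays and 9.85 and 10.03 on the KO arrays. The groups did not overlap, and the arrays within each lay 0.18 apart. It was lower by -0.55 ± 0.12 (SE; limma adjusted p = 0.0281), or 0.683 of the WT level with a 95% interval from 0.559 to 0.835. The call depended on single arrays. Leaving out WT replicate 1 gave an adjusted p of 0.12, KO replicate 1 one of 0.148 and KO replicate 2 one of 0.0697, with differences from -0.64 to -0.46.

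Of 7 other measured genes of cholesteryl ester hydrolysis and formation, 6 did not pass. The lipid droplet coat gene Plin2 was lower by -0.64 ± 0.10, where 6.86% of all genes were lower. Among these 7 genes, 4 (Ces1d, Ces1f, Ces1g and Aadac) were below the array median on all arrays, where a difference is hard to see. Without KO replicate 1 the adjusted p of Plin2 was 0.0596, and without KO replicate 2 it was 0.0671. Lipa, the lysosomal acid lipase that hydrolyses esters taken up with lipoproteins, read 10.34 and 10.16 in WT and 10.31 and 10.38 in KO, a difference of 0.10 ± 0.11 (SE; limma adjusted p = 0.66). Lipe, the hormone-sensitive lipase gene, differed by 0.18 ± 0.12. The esterifying enzyme genes Soat1 and Soat2 were not analysed here.

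Pltp encodes the phospholipid transfer protein, which remodels high-density lipoprotein. The probe set annotated with both Ctsa and Pltp read 9.52 and 9.12 on the WT arrays and 7.67 and 7.80 on the KO arrays. In a fit over all 28371 probe sets, added after the values were seen, it was lower by -1.59 ± 0.15 (SE; limma adjusted p = 0.00384), and 4.92% of probe sets were called lower. Ctsa, which encodes the lysosomal protective protein cathepsin A, also has a probe set of its own, which read 10.65 and 10.58 in WT and 10.66 and 10.56 in KO, a difference of 0.00 ± 0.10. A probe set shared by Ctsa and Neurl2 differed by -0.40 ± 0.13 (limma adjusted p = 0.144). These values do not assign the signal of the shared probe set to either gene.

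Among 15 measured sterol-sensing transcription factors and partners, 2 were higher and 2 lower, against 7.41% and 6.86% of all genes. Their median difference was 0.07. Nr1h3, which encodes LXRα, read 7.38 and 6.92 in WT and 5.15 and 4.95 in KO. Both KO arrays were below both WT arrays, and Nr1h3 was lower by -2.11 ± 0.17 (SE; limma adjusted p = 0.00079), while the LXRβ gene Nr1h2 was not analysed here. Maf, a transcription factor of resident macrophages, was higher by 1.27 ± 0.13. Ppard was higher by 0.53 ± 0.10 and the coactivator gene Ncoa1 lower by -0.56 ± 0.10, and both calls depended on single arrays, with adjusted p from 0.0544 to 0.0954 for Ncoa1 (without WT replicate 1, WT replicate 2 or KO replicate 1) and from 0.0675 to 0.0931 for Ppard (without WT replicate 2, KO replicate 1 or KO replicate 2). The RXR genes Rxra (-0.18 ± 0.14) and Rxrb (-0.16 ± 0.11) did not pass.

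Of 18 measured genes known as LXR targets, a list that holds Nr1h3 itself and 5 of the 7 genes described above, 3 were higher and 7 lower while 8 did not pass, with a median of -0.18. Over all genes 7.41% were higher and 6.86% lower. Apoe and Apoc2 stood at one end of this list and Nr1h3 at the other. Besides them, Mylip, which encodes a ubiquitin ligase, read 7.95 and 7.88 in WT and 7.02 and 6.91 in KO and was lower by -0.95 ± 0.10 (SE; limma adjusted p = 0.002). Lpl, the lipoprotein lipase gene, was lower by -1.22 ± 0.12. The other lower genes were Lpcat3 (-0.68 ± 0.10), Scd2 (-0.67 ± 0.11) and Mertk (-0.48 ± 0.11), and the other higher gene was Smpdl3a (0.62 ± 0.10).

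Mertk lost its call without any 1 of the arrays (adjusted p from 0.0592 to 0.171), Scd2 without KO replicate 1 (0.0522) or KO replicate 2 (0.0657) and Smpdl3a without KO replicate 1 (0.065). The list had 2 higher genes without KO replicate 1, and 5 lower genes without either KO array. Srebf1, which encodes a factor of fatty acid synthesis, read 6.89 and 6.50 in WT and 5.98 and 6.19 in KO, a difference of -0.61 ± 0.16 (SE; limma adjusted p = 0.0506), with an adjusted p of 0.0186 without WT replicate 2. Scd1, with WT arrays at 7.27 and 6.30, differed by 0.02 ± 0.30. Arl4c was not analysed here.

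**Figure D4:**
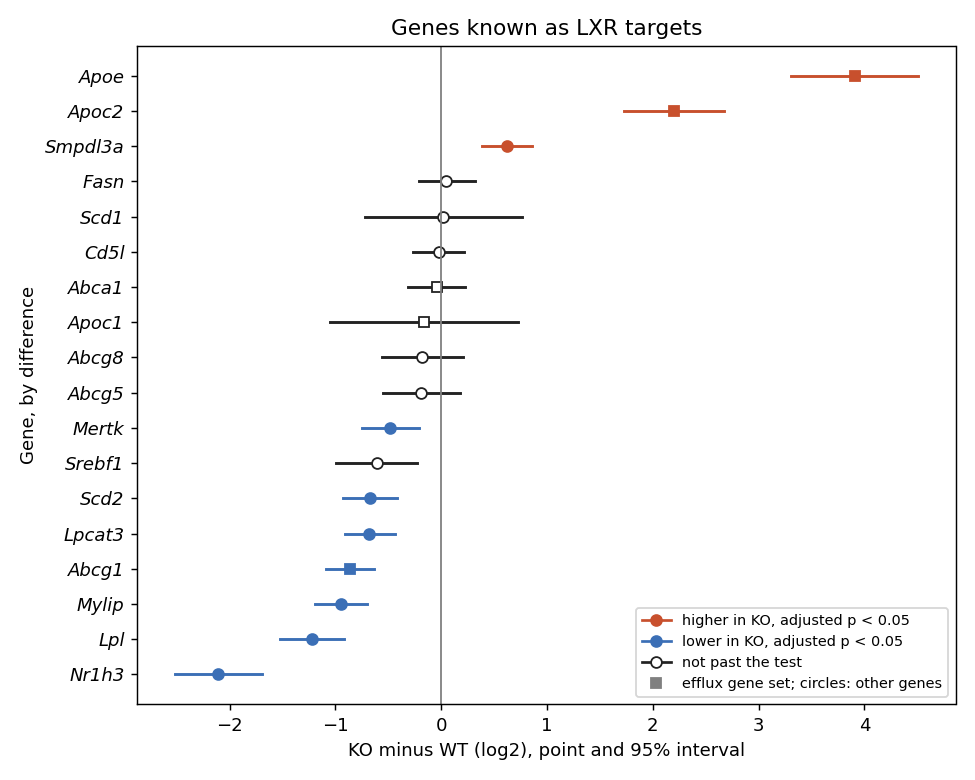
Difference between the KO and WT means in log2 units, KO less WT, and its 95% interval from the limma model, for the 18 measured genes of the LXR target list, sorted by difference. Squares mark genes of the efflux set and circles the others, filled symbols pass the test; Apoe (3.91) and Apoc2 (2.20) lie at the top, Abca1 (-0.04) near 0 and Nr1h3 (-2.11) at the bottom.

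On the uptake side, 9 lipoprotein receptors and their regulators were measured, with a median difference of -0.17. Of these, 2 were higher and 3 lower, against 7.41% and 6.86% of all genes. Trem2, a lipid receptor that also binds apolipoprotein E, read 6.82 and 6.85 in WT and 9.40 and 9.41 in KO, a rise of 2.57 ± 0.09 (SE; limma adjusted p = 5.21e-05). Lrpap1, a chaperone of lipoprotein receptors, was higher by 1.40 ± 0.15. Scarb1, the receptor for high-density lipoprotein, read 8.33 and 8.12 in WT and 6.77 and 6.95 in KO and was lower by -1.37 ± 0.12. Lrp8, a receptor for apolipoprotein E, was lower by -1.26 ± 0.22, with an adjusted p of 0.0899 without KO replicate 1, while Lrp1 differed by -0.17 ± 0.09 (limma adjusted p = 0.324).

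Among 11 measured genes of lipoprotein lipases and lipoprotein remodelling, 2 were higher and 2 lower, against 7.41% and 6.86% of all genes. Their median difference was -0.06. Below the array median on all arrays were 4 of the 11. Pla2g7, which encodes the lipoprotein-associated phospholipase that cleaves oxidised phospholipids, read 3.47 and 3.62 in WT and 7.77 and 7.99 in KO. It rose by 4.34 ± 0.12 (SE; limma adjusted p = 1.73e-05). Lcat, which esterifies cholesterol on high-density lipoprotein, was higher by 0.66 ± 0.12, and lost its call without WT replicate 2 (adjusted p = 0.0615), KO replicate 1 (0.104) or KO replicate 2 (0.0541). Beside the rise of Apoc2, the cofactor of lipoprotein lipase, the lipase gene Lpl was lower as given above, and Angptl4, an inhibitor of that lipase, was lower by -2.18 ± 0.13.

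Of 17 genes of sterol transport within the cell, 5 were higher and 2 lower, against 7.41% and 6.86% of all genes. The other 10 did not pass, and the median difference was 0.18. Cav1, which encodes the coat protein of caveolae, was higher by 1.72 ± 0.10, and Gramd1b (0.94 ± 0.11) and Gramd1a (0.73 ± 0.11), whose products carry cholesterol from the plasma membrane to the endoplasmic reticulum, were higher with Osbpl8 (0.94 ± 0.13). The fifth was Npc2 (0.51 ± 0.10), the lysosomal cholesterol carrier, and the lower genes were Osbpl11 (-0.61 ± 0.11) and Scp2 (-0.54 ± 0.11). The list had 3 higher genes without KO replicate 2, and both lower calls were lost without KO replicate 1. Npc2 had adjusted p from 0.0544 to 0.122 when any 1 array was left out, and Gramd1a 0.0594 without KO replicate 2. Npc1, the partner of Npc2, read 9.64 and 9.69 in WT and 9.95 and 9.97 in KO, a difference of 0.30 ± 0.09 (limma adjusted p = 0.0992).

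For each of the genes that passed the test, the genes closest in pattern over the 4 arrays were taken by the same centred distance, with predicted and small RNA genes passed over. Those nearest to Apoe were Plcb4 (distance 0.19), Sema4d (0.24) and Socs3 (0.28). Nearest to Apoc2 were Slc27a6 (0.06), Dennd11 (0.06) and Fmnl2 (0.07), and nearest to Cyp27a1 were Plxnb2 (0.01), Lrrc25 (0.03) and Foxp1 (0.04). Abcg1 lay closest to Tgm2, Cd47 and Fam118b (0.02 each), and Nceh1 to Ift140, Cenpb and Arhgef4 (0.01 each). These distances rest on only 4 arrays in 2 groups.

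Checks on the samples bear on these values. Pparg itself read 9.69 and 9.75 in WT and 9.59 and 9.73 in KO, and whether its probes touch the deleted exons is not known here, so this does not check the genotype. Of the genes of the sort gate, the CD11b gene Itgam was higher in KO by 5.76 ± 0.14 (SE), with means of 2.98 in WT and 8.74 in KO. Cells were sorted as CD11b low in WT and high in KO, so this is not an independent check. Siglecf read 9.59 and 9.44 in WT and 6.01 and 6.48 in KO, lower by -3.27 ± 0.17 (SE; limma adjusted p = 0.000164) although both groups were sorted as Siglec-F-positive. The CD45 gene Ptprc was lower by -0.52 ± 0.10, a call lost when WT replicate 1 (adjusted p = 0.0982), KO replicate 1 (0.117) or KO replicate 2 (0.0769) was left out, and the CD11c gene Itgax differed by 0.24 ± 0.09 (limma adjusted p = 0.168). Of 12 measured alveolar macrophage markers, 6 were lower and 6 did not pass, where 6.86% of all genes were lower. The lower ones were Krt79 (-6.19 ± 0.50), Fabp1 (-5.96 ± 0.18) and Cidec (-5.67 ± 0.10), which were the 3 largest falls of all genes, with Krt19 (-4.93 ± 0.26), Siglecf and Mrc1 (-0.44 ± 0.09). Mrc1 lost its call with any 1 array left out (adjusted p from 0.0799 to 0.129). Among those that did not pass were Chil3 (0.04 ± 0.10), Plet1 (-0.04 ± 0.09) and Car4 (-0.31 ± 0.10). Marco did not pass either, with a difference of -2.62 ± 0.80 (SE; limma adjusted p = 0.0897). It read 7.22 and 4.43 in WT and 3.04 and 3.37 in KO. At an unadjusted p under 0.05, 1 of the 12 markers was higher and 8 were lower, against 2373 and 2630 of all 18782 genes. The mean of these markers was 9.99 and 9.51 in WT and 7.25 and 7.39 in KO, and none was below the array median on all arrays.

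Markers of interstitial macrophages, which also express Apoe, were mostly higher in KO, by differing amounts. Of 12 measured, 9 were higher and 0 lower by limma, against 7.41% and 6.86% of all genes. At an unadjusted p under 0.05 there were 10 and 0, against 2373 and 2630 of all 18782 genes. The count of higher markers was 6 with either KO array left out and 7 with either WT array left out, and their mean level was 3.25 and 3.32 in WT and 5.22 and 5.08 in KO. Folr2, Cd163 and Tmem119 were below the array median on all arrays, while C1qa read 3.28 and 3.46 in WT and 7.23 and 7.05 in KO. The largest rises were those of C1qb (6.48 ± 0.34), C1qc (4.84 ± 0.13), C1qa (3.77 ± 0.12) and Cx3cr1 (2.91 ± 0.16). Lyve1 (3.20 and 3.08), F13a1 (3.19 and 3.50) and Stab1 (3.40 and 3.41) were called higher but stood near the array median of 3.14 in KO. The 8 monocyte markers held 4 higher, Ccr2 (1.82 ± 0.34), Ace (0.96 ± 0.17), Fn1 (0.74 ± 0.15) and Vcan (0.48 ± 0.11), and 2 lower, Cd300e (-2.60 ± 0.17) and Treml4 (-2.39 ± 0.31). Each of the higher calls was lost with either KO array left out (adjusted p from 0.0753 to 0.136), and those of Fn1 (0.0577) and Vcan (0.141) also without WT replicate 1. The part of such cells or states in the rise of Apoe was not tested. Among 10 markers of fibroblasts and smooth muscle, 0 passed the limma test, with 1 higher at an unadjusted p under 0.05 (Acta2, 0.37 ± 0.12), and 6 were below the array median on all arrays.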

How the data were processed

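The authors deposited a table of log2 values, 1 for each probe set and array, which they computed by RMA, and the submitters' processing notes name R 2.15.2. The chip definition, RMA settings and genome build were not given in the sources used here. The table held 28371 probe sets on 4 arrays, of which 21158 had 1 gene symbol in the platform annotation, 1881 several and 5332 none listed there. For genes with several probe sets the brightest was used, without an intensity filter, which left 18782 genes. The comparison of KO with WT used limma 3.58.1 (R 4.3.3), with genotype as the only term (2 residual and 4.16 prior degrees of freedom), two-sided, with Benjamini-Hochberg adjustment over all genes. Precision is limited by the number of arrays. The members, the gene lists and the rules were chosen with earlier results of these data known. Named were all members, the targeted and gate genes, the genes next to Apoe, some LXR genes, the nearest genes by pattern, and up to 4 genes with the smallest p in each direction of a wider list. The cell type marker lists were named in part only. The counts of every list are to be read beside the 7.41% of all genes called higher and 6.86% called lower. Further genes were named after their values were seen. In simulated data of 18782 genes with the spread of these arrays, moderated as in limma, the KO against WT test called 25 of 67 genes given a log2 shift of 0.5, 67 of 67 given 1 and 66 of 66 given 2, and it called 19 genes that had no shift. Far fewer genes were shifted there than the 14.3% called in the real arrays, so these rates need not hold for the real arrays. Alternatives left out each array, added a replicate block, averaged probe sets, dropped dim genes, changed the variance model or normalization, tested against a difference of 0.5, or used all probe sets.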

Additional observations from a re-analysis of the deposited data

How the results depend on the processing

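Over 12 alternatives, Apoe, Apoc2 and Cyp27a1 kept their direction and their call in every one, with differences from 3.51 to 4.31 (Apoe), 1.91 to 2.49 (Apoc2) and 0.95 to 1.26 (Cyp27a1). Abcg1 lost its call in 1, the test against a difference of 0.5 (adjusted p = 0.0901), and Nceh1 in 5. Apoc1 turned to 0.41 without WT replicate 1 and to 0.08 without KO replicate 2, in a range from -0.74 to 0.41 with 1 array left out. Abca1 turned to 0.06 without KO replicate 2, in a range from -0.15 to 0.06. With 1 array left out, 3 members were higher each time, and between 1 and 2 were lower. The lone array of a group was then assumed to vary like the others.

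Over all genes, the counts with 1 array left out ran from 726 to 1227 higher and from 647 to 1057 lower. In the wider lists without the members, which held 20 higher and 15 lower of 107 genes, they ran from 13 to 18 higher and from 8 to 13 lower. With all arrays, 7.41% of all genes were higher and 6.86% lower. Against a difference of 0.5, 498 genes were higher and 336 lower over all genes, 0 members were lower, and the wider lists had 9 higher and 7 lower.

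The deviations of same-numbered arrays correlated at -0.02 across genes, so no shared shift by replicate number was seen. This cannot show whether same-numbered arrays were handled as pairs. With the replicate block, 1309 genes were higher and 1168 lower, and 1 member was lower instead of 2, as Nceh1 had an adjusted p of 0.051. It changed no other member's call.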
